A study of Homo sapiens with 24 samples.

Results

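TFRC, which encodes the transferrin receptor, was followed together with 9 other genes of cellular iron handling, giving 10 genes of the 58721 gene IDs counted. The 10 genes were taken by symbol, and the set was selected on the fall of TFRC and SLC39A14 transcripts in glioblastoma cells given an siRNA against ZNF593, relative to their controls. That contrast chose the genes, so its values are given for these 10 genes as a description with no test. The other 8 genes are STEAP3, SLC11A2, FTL, FTH1, SLC40A1, ACO1, IREB2 and FBXL5.

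RNA-seq gene counts came from 24 libraries of 2 human cell lines, in 8 groups of 3. LN-229 is a glioblastoma line of wild-type genotype, and its 5 groups were siControl (control siRNA), siZFX (ZFX knocked down by siRNA), siZNF593 (ZNF593 knocked down likewise), siControl_2 (another set of control libraries) and siZFX siZNF593 (both genes knocked down, called the double knockdown here). The treatment label does not tell siControl_2 from siControl, and siControl_2 was taken as the control of the double knockdown from the naming of the deposited data. All 3 groups of 293T cells, a line of human embryonic kidney origin, are labelled as a knockout of both ZFX and ZNF711 (called DKO cells after that label), and received the empty vector pCMV6, FLAG-tagged ZFX of wild-type sequence (wtZFX) or the FLAG-tagged construct named ZFX12_13. What was altered in ZFX12_13, whether the DKO cells are 1 clone, and the times of collection are not given in the sources used here. ZFX and ZNF593 are zinc finger proteins, and ZFX is a transcription factor that binds close to the start sites of many genes.

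Cells take up iron mostly as transferrin, which binds TFRC at the surface and is carried into endosomes, where a ferrireductase such as STEAP3 reduces the iron and SLC11A2 (DMT1) carries it into the cytosol. SLC39A14 (ZIP14) brings in iron that is not bound to transferrin, along with zinc and manganese. Ferritin, a shell of FTH1 and FTL chains, stores what is not used, and SLC40A1 (ferroportin) exports it. When iron is scarce, the iron regulatory proteins encoded by ACO1 and IREB2 bind stem-loops called iron-responsive elements. Binding in the 3′ UTR of TFRC protects that mRNA from decay, and binding in the 5′ UTR of FTH1, FTL and SLC40A1 blocks translation. FBXL5 is the iron-sensing subunit of the ubiquitin ligase that removes IREB2 protein when iron is plentiful. Transcript levels therefore speak to only part of this circuit, since the control of ferritin and ferroportin by these elements acts on translation.

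The elements themselves show how the genes differ in this circuit, and they are printed here because TFRC carries several and the ferritin chains 1 each. A pattern of 17 bases was searched on the transcript strand of the UTRs of GENCODE 29 basic coding transcripts (GRCh38): a C, then 5 bases, then the loop CAGTGN, then 5 bases that pair with the first 5, G with T allowed. Capitals mark the loop, which begins with CAGTG, and the lower-case bases are the stem and 5 further bases on each side. Coordinates give the 17-base window.
TFRC 3′ UTR, chr3:196050985-196051001, minus strand: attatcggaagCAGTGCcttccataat
TFRC 3′ UTR, chr3:196050581-196050597, minus strand: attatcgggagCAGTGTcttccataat
TFRC 3′ UTR, chr3:196050516-196050532, minus strand: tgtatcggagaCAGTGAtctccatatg
TFRC 3′ UTR, chr3:196050469-196050485, minus strand: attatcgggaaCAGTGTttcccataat
FTH1 5′ UTR, chr11:61967580-61967596, minus strand: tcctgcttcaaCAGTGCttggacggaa
FTL 5′ UTR, chr19:48965341-48965357, plus strand: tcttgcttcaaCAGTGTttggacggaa
SLC40A1 5′ UTR, chr2:189580667-189580683, minus strand: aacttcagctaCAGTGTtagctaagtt

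Of 19652 protein-coding genes, 159 (0.809%) held at least 1 such match in a UTR, and TFRC, with 4, was 1 of 2 genes that held 3 or more. The 4 matches lay in the 3′ UTR of all 3 coding TFRC transcripts. Matches in FTH1, FTL and SLC40A1 lay in the 5′ UTR. In the other 6 of the 10 genes no UTR match was found, which says only that these letters were not there. EPAS1 and CDC42BPA, counted here in a list of transcripts with an iron-responsive element, gave no match either. The pattern can thus miss such elements, and a gene without a match may still carry one. A second search looked for AGGCCT, the core of the motif bound by ZFX, which reads the same on both strands, from 250 bases before to 50 bases after the RefSeq start site (GRCh38.p14). None of the 8 genes with a window held it, against 10.9% of all 35116 windows. At that share, 8 windows are too few to read a lack of the motif from this. FTH1 and SLC39A14 had no window.

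Libraries held 16774179 to 30159260 counts on genes in LN-229 and 16223239 to 24272308 in DKO cells. In LN-229 the siRNA targets were lower where the labels name them: ZNF593, counted over both strands, was at 29.8 ± 2.47 CPM (counts scaled by library total; mean ± SD, n = 3 libraries, as throughout) in siControl, 1.95 ± 0.55 in siZNF593, 30.9 in siControl_2 and 2.73 ± 0.395 in the double knockdown. ZFX was at 50.5 CPM in siControl and 16.0 in siZFX, and 53.6 in siControl_2 against 26.7 in the double knockdown. In the cells labelled as a knockout, reads of both knockout targets were abundant: with pCMV6 ZFX was at 224 CPM and ZNF711 at 306, and ZNF711 was at 263 with wtZFX and 256 with ZFX12_13. Counts over a whole gene do not show an edit, so they do not check that label. ZFX was at 15530 CPM with wtZFX and 18890 with ZFX12_13. By median, 8 of 8 markers of LN-229 cells were at 1 CPM or more in LN-229 and 7 of 8 in DKO cells, where their sum was lower (315 to 342 CPM against 3716 to 5708). The 5 markers of 293T cells were all at that level in DKO cells, and none was in LN-229, where 4 had a median of 0. Of 7 markers of other brain cells, 2 reached it in LN-229 and 5 in DKO cells (sums of 33.5 to 76.2 and 35.6 to 39.1 CPM). None of 4 markers of kidney tissue had a median of 1 CPM in either line (sums up to 0.878 and 2.32 CPM), nor had any of the 4 erythroid and liver markers (sums up to 0.678 and 2.14 CPM). Replicate 3 of the double knockdown stood apart from its group, with 3.17% of reads unmapped against 1.97 and 2.03% and the lowest share of ambiguous reads in LN-229 (9.64%). The lowest correlation between libraries of its group was 0.992, against 0.996 or more in the other LN-229 groups. The replicates are called biological, yet separate cultures are not mentioned, and the p-values measure only the spread between these libraries. In bulk RNA a lower value may reflect fewer cells that express a gene or less RNA per cell, which cannot be told apart.

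All 10 genes passed the filter on low counts in both lines. Per kilobase of exon (FPKM), the order of levels in siControl was FTL (1797), FTH1 (221), TFRC (51.6), SLC39A14 (22.6), FBXL5 (18.2), IREB2 (12.7), ACO1 (10.4), SLC11A2 (9.21), STEAP3 (6.62) and SLC40A1 (0.0892), with no overlap of replicates between neighbours. In DKO cells with pCMV6 the order was FTL (352), TFRC (40.9), FTH1 (39.3), IREB2 (17.9), SLC39A14 (16.2), FBXL5 (10.4), ACO1 (7.12), STEAP3 (6.16), SLC11A2 (5.23) and SLC40A1 (1.12), where TFRC and FTH1 overlapped. The value of FTH1 is an undercount in both lines, for the reason given with the ferritin genes, and its place in both orders rests on it. With both strands summed, FTH1 was at 1190 FPKM in siControl against 1540 for FTL, and with pCMV6 at 302 against 306 for FTL and 35.6 for TFRC, so FTH1 no longer overlapped TFRC. Values of the 2 lines were scaled separately and are not compared by a test.

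TFRC (chr3:196027183-196082189, minus strand, GRCh38) was at 398, 419.5 and 404 CPM in the siControl libraries and at 55.7, 61.6 and 53.8 CPM in the siZNF593 libraries, which left 14% of the control level (log2 difference -2.84). In the double knockdown it was at 102, 109 and 129.8 CPM against 345.3, 345.7 and 345.1 in siControl_2. Every double knockdown library lay far below every control library, and every one lay above the siZNF593 libraries. The fall in the double knockdown was -1.60 on the log2 scale (SE 0.08), or 3.04-fold, with an edgeR adjusted p of 5.74e-13. By the selection rule these libraries did not enter the choice of TFRC. The spread, however, was estimated over all 15 LN-229 libraries, including those of siZNF593 and siControl. With only the 2 groups in the fit the fall was -1.58 (edgeR adjusted p = 1.14e-05). Without replicate 3 of the double knockdown, its highest library for TFRC, the fall was -1.70.

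With siZFX alone TFRC was at 452, 462 and 466 CPM, above all 3 siControl libraries. This difference was 0.18 on the log2 scale (95% interval 0.03 to 0.32) and missed the threshold (edgeR adjusted p = 0.0769). It passed with only the 2 groups in the fit (0.17, adjusted p = 0.00145) and against siControl_2 (0.41, adjusted p = 0.000106). The control sets themselves differed, siControl_2 lying 0.24 below siControl on the log2 scale (edgeR adjusted p = 0.0433), a call that was lost when any 1 of the 6 control libraries was left out (adjusted p up to 0.151). Setting the change in the double knockdown against the change in siZFX gave a difference of -1.78 (SE 0.11, edgeR adjusted p = 6.47e-11). That difference, like the siZFX and siControl_2 comparisons, rests in part on the siControl libraries that entered the choice of the genes.

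SLC39A14 (chromosome 8, 22367249 to 22434129, plus strand), the importer of iron not bound to transferrin, was at 153, 169 and 148 CPM in siControl and at 24.9, 21.1 and 27.2 CPM in siZNF593, a log2 difference of -2.69. Its level in the double knockdown was 24.9, 26.1 and 27.3 CPM against 154.5, 137 and 143 in siControl_2. The ranges of siZNF593 and the double knockdown overlapped, in contrast to those of TFRC. The fall against siControl_2 was -2.47 (SE 0.09), or 5.54-fold, with an edgeR adjusted p of 3.84e-15. With siZFX the 3 libraries were at 145, 146 and 145 CPM, just under the lowest control. The difference of -0.11 did not pass (95% interval -0.27 to 0.05, edgeR adjusted p = 0.337), but did with only the 2 groups in the fit (-0.12, adjusted p = 0.0415). Against siControl_2 the siZFX difference was 0.0058. The change in the double knockdown exceeded that in siZFX by -2.36 (SE 0.12, edgeR adjusted p = 7.72e-12).

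**Figure D1:**
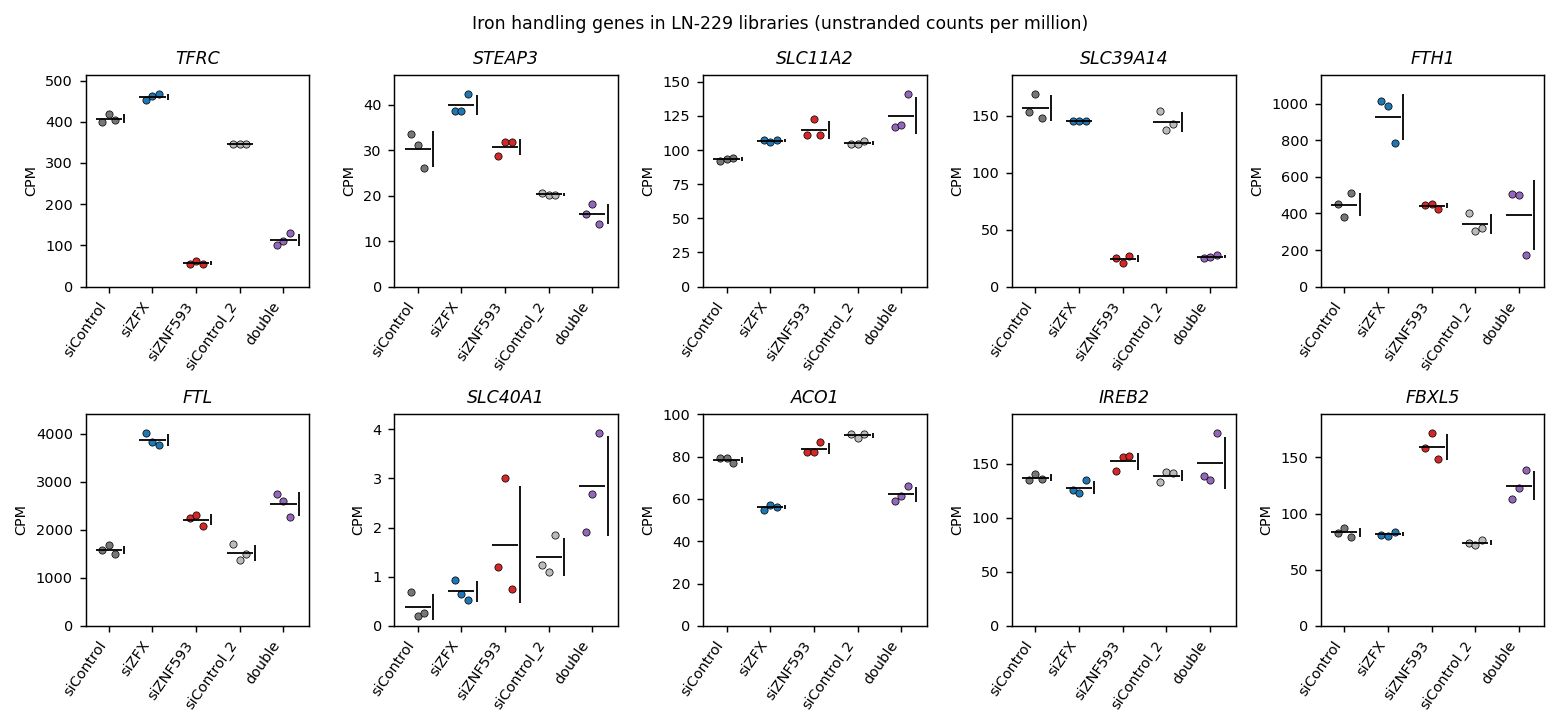
CPM of the 10 genes in the LN-229 libraries, 1 panel per gene on an axis from 0, with 1 point per library, a bar at the mean of 3 and a vertical line of 1 SD on each side. TFRC and SLC39A14 sit low in siZNF593 and in the double knockdown, FTL sits highest in siZFX, and FBXL5 is raised in siZNF593 and the double knockdown.

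The other genes of the uptake route, STEAP3 and SLC11A2, changed less than TFRC in siZNF593 and in the double knockdown. STEAP3 changed more than TFRC with siZFX (0.40 against 0.18 on the log2 scale) and between the control sets (-0.58 against -0.24). STEAP3 differed in the same direction as TFRC with siZFX, in siControl_2 and in the double knockdown, and SLC11A2 was higher in the double knockdown. STEAP3 (chr2:119223831-119265652, plus strand), the endosomal ferrireductase, was at 33.6, 31.0 and 26.0 CPM in siControl, 28.8, 31.8 and 31.7 in siZNF593 and 38.6, 38.7 and 42.4 in siZFX. The siZFX libraries were higher than all controls, by 0.40 on the log2 scale (edgeR adjusted p = 0.0062), and this call was lost without siControl replicate 3 (0.30, adjusted p = 0.053). In siControl_2 STEAP3 was at 20.6, 20.1 and 20.2 CPM, below every siControl library, by -0.58 (edgeR adjusted p = 0.000976). The double knockdown was lower again, at 16.0, 18.1 and 13.7 CPM, a fall of -0.35 (edgeR adjusted p = 0.017) that was lost without double knockdown replicate 3 (-0.24, adjusted p = 0.0712) or siControl_2 replicate 1 (-0.33, adjusted p = 0.0536), or with only the 2 groups in the fit (adjusted p = 0.0885). The siZNF593 libraries, level with siControl (0.02), were 0.60 above siControl_2. The direction of STEAP3 with siZFX differed from that in the double knockdown, by -0.75 (SE 0.16, edgeR adjusted p = 0.00145). Of the exonic bases of STEAP3, 11% are shared with STEAP3-AS1 on the opposite strand, and the unstranded column kept 78.7 to 88.6% of its reads in LN-229.

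SLC11A2 (chr12:50979401-51028566, minus strand), the endosomal iron transporter, was at 92.1, 93.8 and 94.5 CPM in siControl, 107, 106 and 107.5 in siZFX and 111, 123 and 111 in siZNF593. In siControl_2 it was at 104, 104 and 107 CPM and in the double knockdown at 117, 118 and 141. All 3 double knockdown libraries were higher than their controls, by 0.25 on the log2 scale (edgeR adjusted p = 0.00901), a call lost with only the 2 groups in the fit (adjusted p = 0.0673). The siZFX libraries did not overlap siControl either, but the difference of 0.19 missed the threshold (edgeR adjusted p = 0.0518), which it passed with upper-quartile scaling (0.0409) or with only the 2 groups in the fit (0.00193). The mean of siControl_2 (105.1 CPM) lay close to that of siZFX (106.8 CPM). Over the alternative settings, the other control set included, the siZFX difference ranged from 0.023 to 0.21, with adjusted p up to 0.845.

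FTL (chr19:48965301-48966878, plus strand), the light chain of ferritin, had the highest level per length of the 10 transcripts in siControl and had the largest called change with siZFX. It was at 1574, 1672 and 1487 CPM in siControl and at 4010, 3826 and 3764 CPM in siZFX. The groups were far apart, with a rise of 1.29 on the log2 scale (SE 0.08), or 2.45-fold (edgeR adjusted p = 2.79e-11). In siZNF593 FTL was at 2238, 2301 and 2080 CPM, above all siControl libraries (log2 difference 0.48). The double knockdown gave 2735, 2599 and 2257 CPM against 1704, 1372 and 1490.0 in siControl_2, a rise of 0.73 (SE 0.08, edgeR adjusted p = 1.45e-07). The double knockdown thus lay above its controls in all libraries but rose less than siZFX alone, the difference of the changes being -0.56 (SE 0.11, edgeR adjusted p = 0.000882). Residual ZFX was higher in the double knockdown (26.7 CPM) than in siZFX (16.0 CPM), and its part in this difference was not tested.

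FTH1 (chr11:61959718-61967660, minus strand), the heavy chain with the ferroxidase activity of ferritin, shares 62.4% of its exonic bases with BEST1 on the opposite strand. The unstranded column sets such reads aside, and it kept only 5.46 to 18.8% (median 13.8%) of the FTH1 reads that the stranded columns held together in LN-229 and 10.8 to 14.3% in DKO cells. BEST1 itself had a mean of 1.64 CPM in siControl, 4.43 in siZNF593, 2.10 in siControl_2 and 4.18 in the double knockdown by the unstranded column, and the sum of strands cannot separate it from FTH1. For FTL, TFRC and the other genes apart from STEAP3 the unstranded column kept at least 99.4%.

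In the unstranded column FTH1 was at 454, 383 and 510.1 CPM in siControl and 1013, 989 and 785 CPM in siZFX, with no overlap. The rise was 1.05 on the log2 scale (SE 0.32, edgeR adjusted p = 0.0299), and this call was lost in 5 of 6 fits that left out 1 library, all except the one without siZFX replicate 3 (adjusted p 0.0513 to 0.103), and without a filter on low counts (0.0718). With both strands summed the same libraries were at 2404, 2487 and 2364 CPM in siControl and at 4670, 4610 and 4417 CPM in siZFX. The spread was then small beside the difference, 0.92 (SE 0.07, edgeR adjusted p = 1.23e-09).

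For the double knockdown the choice of column decided the call for FTH1. The unstranded column gave 506, 502 and 172 CPM against 404, 302 and 318 in siControl_2, and the groups overlapped because of replicate 3 (0.21, SE 0.32, edgeR adjusted p = 0.659). That library kept the smallest share of its FTH1 reads, 5.46%, and without it the difference was 0.57 (adjusted p = 0.0146). Summed strands gave 3479, 3571 and 2866 CPM against 2193, 2053 and 2138 in siControl_2, a rise of 0.64 (SE 0.07, edgeR adjusted p = 2.65e-07) with no overlap. In siZNF593 the summed value was 2792 ± 103 CPM against 2418 ± 62.4 in siControl. On summed strands the change in the double knockdown and that in siZFX differed by -0.28, which missed the threshold (edgeR adjusted p = 0.0534).

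**Figure D2:**
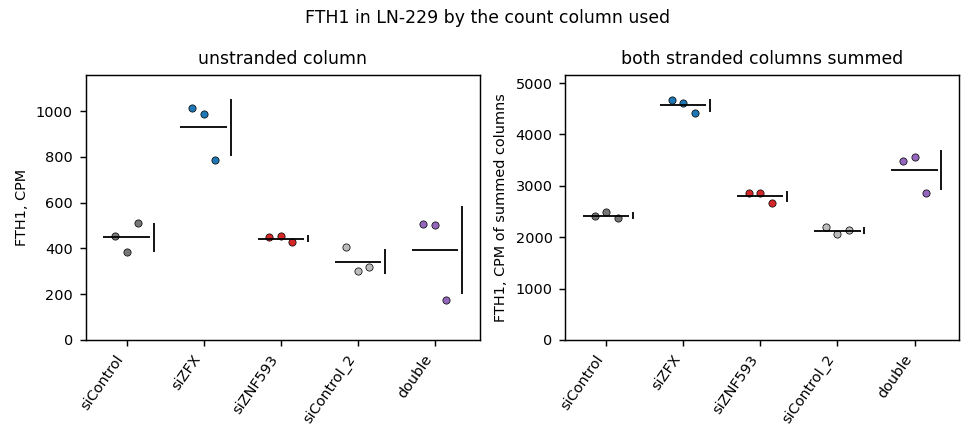
FTH1 in the LN-229 libraries by the unstranded count column (left) and by both stranded columns summed (right), in CPM on axes from 0; points are libraries, bars are means of 3 and vertical lines 1 SD on each side. Replicate 3 of the double knockdown is at 172 CPM on the left, below every siControl_2 library, and at 2866 CPM on the right, above all of them.

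SLC40A1 (chr2:189560579-189583758, minus strand), the only known exporter of iron from cells, was scarcely detected in LN-229. Its counts were 19, 6 and 6 in siControl, 21, 14 and 12 in siZFX, 24, 58 and 13 in siZNF593, 27, 22 and 36 in siControl_2 and 48, 71 and 100 in the double knockdown. As CPM the double knockdown was at 1.92, 2.69 and 3.92 against 1.25, 1.104 and 1.84 in siControl_2, higher in every library but not past the threshold (log2 difference 1.02, edgeR adjusted p = 0.079). It passed without double knockdown replicate 1 (1.27, adjusted p = 0.04) and against siControl (2.86, adjusted p = 9.08e-05). The control sets differed by 1.83 (edgeR adjusted p = 0.0258), which was lost without siControl replicate 2 (adjusted p = 0.135), siControl replicate 3 (0.112) or siControl_2 replicate 3 (0.121). The siZNF593 difference was 2.08 against siControl and 0.25 against siControl_2.

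Among the sensors, ACO1 (chr9:32384603-32454769, plus strand), the cytosolic aconitase that becomes iron regulatory protein 1 when it loses its iron-sulfur cluster, fell wherever ZFX was targeted. It was at 79.3, 79.6 and 77 CPM in siControl, 54.9, 57.1 and 56.4 in siZFX and 82.1, 82.3 and 87.0 in siZNF593. The siZFX libraries lay below all controls, with a fall of -0.49 on the log2 scale (SE 0.07, edgeR adjusted p = 6.83e-06). In the double knockdown ACO1 was at 59.2, 61.4 and 65.9 CPM against 90.7, 88.9 and 90.7 in siControl_2, a fall of -0.54 (SE 0.07, edgeR adjusted p = 1.5e-06) without overlap. The 2 changes differed by -0.05 (95% interval -0.24 to 0.14).

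IREB2 (chr15:78437431-78501456, plus strand), which encodes iron regulatory protein 2, passed in none of the LN-229 comparisons. It ranged from 123 to 178 CPM over the 15 libraries, and the highest was replicate 3 of the double knockdown. FBXL5 (chr4:15604539-15681679, minus strand), which targets IREB2 protein for degradation, was at 83.0, 87.1 and 79.6 CPM in siControl, 81.2, 79.9 and 83.9 in siZFX and 158, 172 and 149 in siZNF593. The siZNF593 libraries were at 1.92-fold the siControl mean (log2 difference 0.94). In the double knockdown FBXL5 was at 113, 123 and 139 CPM against 73.5, 72.1 and 76.8 in siControl_2, with no overlap. This rise was 0.75 on the log2 scale (SE 0.08, edgeR adjusted p = 9.23e-08), and it exceeded the change in siZFX by 0.78 (SE 0.11, edgeR adjusted p = 2.04e-05). The siZFX change was -0.03 (95% interval -0.18 to 0.13).

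Counted over the 10 genes, siZFX against siControl gave 3 higher (FTL, FTH1 and STEAP3) and 1 lower (ACO1), where 30.9% of the 17684 genes tested were called, 13.8% higher and 17.1% lower. The 10 genes had a median log2 change of 0.18, against 0.02 for all genes tested. In the double knockdown 3 were higher (FTL, FBXL5 and SLC11A2) and 4 lower (TFRC, SLC39A14, ACO1 and STEAP3), against 38.2% of all genes, 17.6% higher and 20.6% lower, with a median of 0.16 against 0.01. Without replicate 3 of the double knockdown 4 were higher and 3 lower: SLC39A14 was at -2.50, FTL at 0.82, FBXL5 at 0.68, ACO1 at -0.57 and SLC11A2 at 0.16 on the log2 scale, FTH1 passed and STEAP3 did not. The changes of the double knockdown and of siZFX differed for 5 of the 10 (TFRC, SLC39A14, STEAP3 and FTL lower, FBXL5 higher), where 17.7% of all genes passed, 8.76% higher and 8.97% lower. Between the control sets 3 genes differed (TFRC and STEAP3 lower in siControl_2, SLC40A1 higher), against 10.3% of all genes, 5.43% higher and 4.88% lower. In siZNF593 against siControl 6 of the 10 were past the same threshold, against 26.8% of all genes (12.2% higher and 14.6% lower), but that contrast chose the genes and nothing is read from this count. The siZFX and siZNF593 comparisons share their control libraries.

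**Figure D3:**
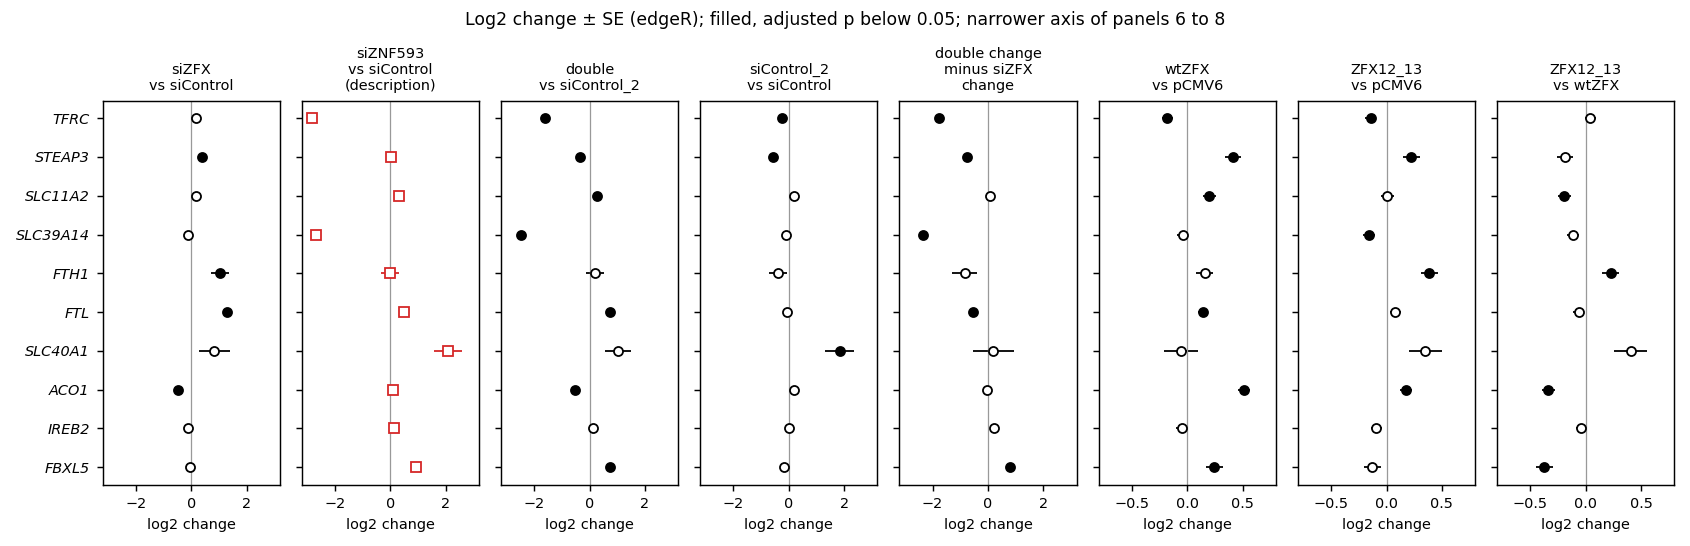
Log2 changes of the 10 genes in the 8 comparisons, each with its SE, on axes of 3.2 on each side of 0 for LN-229 and of 0.8 for the 3 comparisons of DKO cells. Filled circles passed an edgeR adjusted p of 0.05, open circles did not, and open squares mark the siZNF593 contrast, shown as a description. TFRC and SLC39A14 stand far to the left in the double knockdown, FTL to the right with siZFX, and in DKO cells no change exceeds that of ACO1 with wtZFX (0.51).

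In DKO cells the same 10 genes moved little. ACO1 had the largest change with wtZFX and moved in the direction opposite to that in siZFX. STEAP3 and FTL, also called in both of these comparisons, were higher in both. ACO1 was at 53.8, 56.5 and 51.1 CPM with pCMV6, 78.4, 76.9 and 75.4 with wtZFX and 59.98, 62.8 and 59.7 with ZFX12_13, 3 groups that did not overlap. The rise with wtZFX was 0.51 on the log2 scale (SE 0.06, edgeR adjusted p = 5.24e-08). With ZFX12_13 the rise was 0.18 (edgeR adjusted p = 0.0171), lost without pCMV6 replicate 1 (adjusted p = 0.0556), pCMV6 replicate 3 (0.119) or ZFX12_13 replicate 2 (0.0711), or without a filter on low counts (0.0854). ZFX12_13 was below wtZFX by -0.34 (SE 0.06, edgeR adjusted p = 8.12e-05).

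TFRC was at 334, 318 and 317 CPM with pCMV6 and at 289, 278 and 287 with wtZFX, lower in all 3 libraries, by -0.18 (SE 0.05, edgeR adjusted p = 0.00406). With ZFX12_13 it was at 297, 305 and 276 CPM, a fall of -0.14 (edgeR adjusted p = 0.0259) that was lost without pCMV6 replicate 1 (adjusted p = 0.141), pCMV6 replicate 2 (0.054) or ZFX12_13 replicate 3 (0.104), or with only the 2 groups in the fit (0.0547). The 2 constructs gave overlapping TFRC values, with a difference of 0.04 (95% interval -0.06 to 0.14). SLC39A14 was at 114, 106 and 117 CPM with pCMV6, 109, 107 and 111 with wtZFX and 98.1, 104 and 100.3 with ZFX12_13. Only the last group lay below pCMV6 in every library, by -0.16 (edgeR adjusted p = 0.0191), and this call was lost without pCMV6 replicate 1 (0.0765) or 3 (0.121).

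STEAP3 rose with wtZFX, from 28.5, 27.0 and 28.9 CPM to 35.8, 41.0 and 35.4 (0.41, SE 0.07, edgeR adjusted p = 7.05e-05). With ZFX12_13 it was at 30.2, 34.1 and 34.0 CPM (0.22, edgeR adjusted p = 0.0239), a call lost in 4 of the 6 fits that left out a library, those without pCMV6 replicate 1 or 2 or ZFX12_13 replicate 2 or 3 (adjusted p 0.0558 to 0.105), and without a filter (0.0512). Against wtZFX it was -0.19 (edgeR adjusted p = 0.0757), and -0.22 with both strands summed (adjusted p = 0.0178). FBXL5 was at 49.6, 48.0 and 44.7 CPM with pCMV6, 61.8, 51.3 and 55.5 with wtZFX and 45.6, 46.2 and 38.2 with ZFX12_13. It rose with wtZFX (0.24, edgeR adjusted p = 0.0101; lost without wtZFX replicate 1, 0.0976, or pCMV6 replicate 3, 0.0685) and was lower with ZFX12_13 than with wtZFX (-0.37, SE 0.08, edgeR adjusted p = 8e-04).

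SLC11A2 rose with wtZFX from 53.0 ± 1.38 to 60.9 ± 1.03 CPM (0.20, edgeR adjusted p = 0.00528) and was lower with ZFX12_13 than with wtZFX (-0.19, edgeR adjusted p = 0.0156; lost without wtZFX replicate 3, 0.0713, or ZFX12_13 replicate 2, 0.0735). The rise of FTL with wtZFX, from 309 ± 3.81 to 341 ± 13.5 CPM (0.14, edgeR adjusted p = 0.0193), was lost without wtZFX replicate 3 (0.119), pCMV6 replicate 2 (0.0746) or pCMV6 replicate 3 (0.0694), and with upper-quartile scaling (0.0518). FTH1 did not pass with wtZFX (0.16, edgeR adjusted p = 0.111) but did without a filter (0.0443) or with only the 2 groups in the fit (0.00341), and was 0.05 on summed strands (0.396). It was higher with ZFX12_13 than with pCMV6 in the unstranded column (0.39, edgeR adjusted p = 0.000562) and less so on summed strands, at 668 ± 33.0 against 612 ± 2.36 CPM (0.12, edgeR adjusted p = 0.0322). Its unstranded difference between ZFX12_13 and wtZFX (0.23, edgeR adjusted p = 0.043), whose libraries overlapped, was 0.07 on summed strands (adjusted p = 0.276). It was also lost without wtZFX replicate 2 (0.17) or 3 (0.161), or ZFX12_13 replicate 1 (0.111) or 3 (0.16), with only the 2 groups in the fit (0.0664) and with DESeq2 (0.0622). SLC40A1 was at 4.83 ± 0.706 CPM with pCMV6, 4.65 ± 0.202 with wtZFX and 6.16 ± 0.964 with ZFX12_13, and passed in none of these comparisons, but it did so for ZFX12_13 against pCMV6 without pCMV6 replicate 2 (0.034) or ZFX12_13 replicate 1 (0.0465) or 3 (0.0467), and against wtZFX without ZFX12_13 replicate 1 (0.0338) or 3 (0.0386). IREB2 was at 193 ± 0.987, 186 ± 5.18 and 181 ± 8.47 CPM in that order and did not pass.

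Of the 10 genes, 5 were higher and 1 lower with wtZFX, where 42.3% of the 19376 genes tested were called, 23.2% higher and 19.2% lower. With ZFX12_13 against pCMV6 it was 3 higher and 2 lower, against 36.6% of all genes, 20.9% higher and 15.7% lower. Between the constructs 1 was higher and 3 lower in ZFX12_13, against 20.4%, 9.73% higher and 10.6% lower. The median log2 change of the 10 was 0.15 with wtZFX and 0.04 with ZFX12_13, against -0.02 and -0.01 for all genes.

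**Figure D4:**
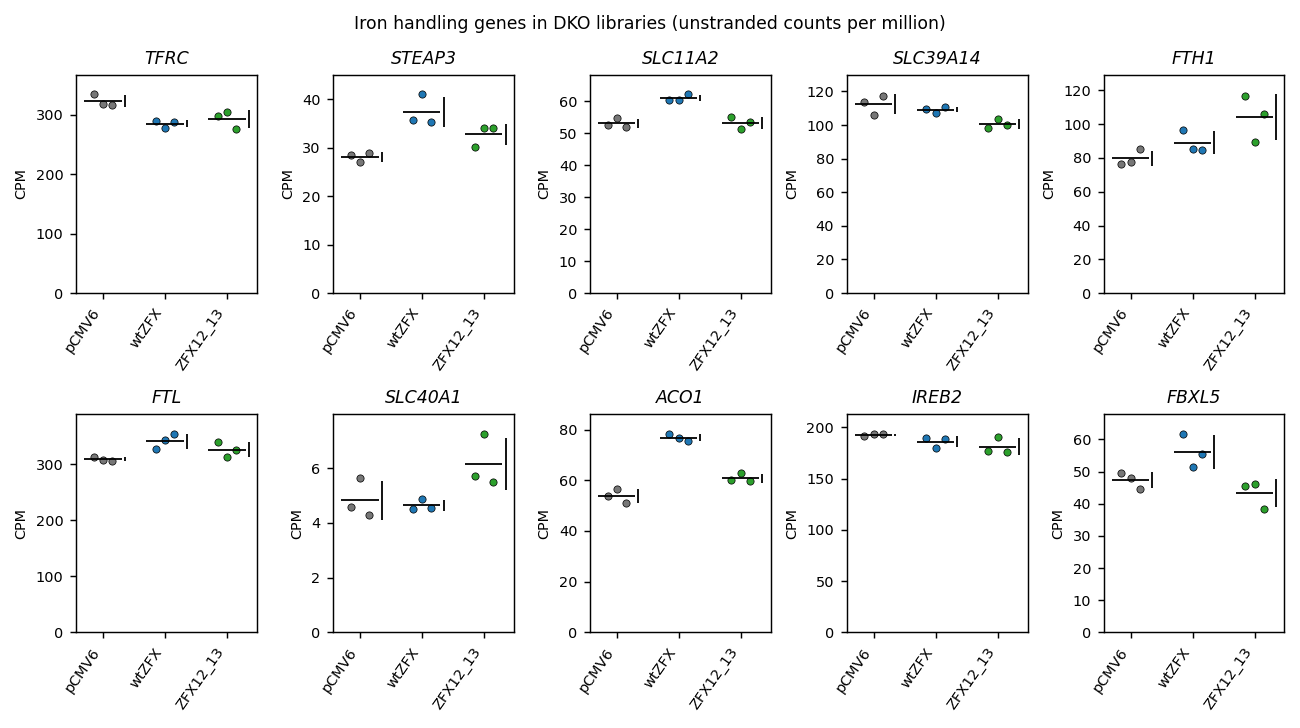
CPM of the 10 genes in the DKO cells with pCMV6, wtZFX or ZFX12_13, on axes from 0, with 1 point per library, a bar at the mean of 3 and a vertical line of 1 SD on each side. ACO1 separates the 3 groups, STEAP3 and SLC11A2 sit highest with wtZFX, and TFRC sits highest with pCMV6.

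Around these 10 genes, 11 lists of other iron, heme and zinc genes (149 in all, 131 tested in each line) were counted. In siZFX 30 were higher and 27 lower (43.5%, against 30.9% of all genes), with a median log2 change of 0.02. The largest called change was of HMOX1, the heme oxygenase that frees iron from heme, from 21.4 ± 0.988 to 106 ± 6.66 CPM (2.31, edgeR adjusted p = 1.27e-12). BLVRA, which reduces the biliverdin made in that step, fell from 45.4 ± 2.61 to 12.7 ± 0.815 CPM (-1.84, edgeR adjusted p = 2.63e-11). SCARA5, a receptor for ferritin, fell from 19.3 ± 1.17 to 5.01 ± 1.15 CPM (-1.94, edgeR adjusted p = 2.33e-09). Of 10 tested genes of heme synthesis, 2 were higher, among them ALAS1 (0.49), the enzyme of the first step, and 3 lower, among them UROD (-0.80) and FECH (-1.01), which inserts iron into the porphyrin ring. The mitochondrial transporter ABCB10 fell by 1.14 and the iron-sulfur scaffold ISCU rose by 0.54. Among regulators of TFRC transcription, decay and traffic, 6 of 17 were higher and 1, HIF1A, lower (-0.81), where 13.8% of all genes were higher and 17.1% lower. The list of iron uptake and reduction had 1 higher and 6 lower of 14, with a median of -0.38. The higher genes among the regulators of TFRC included ZC3H12A (0.60), an endonuclease that cleaves TFRC mRNA, and EHD1 (0.69), which acts in the recycling of the receptor.

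In the double knockdown 23 of the 131 were higher and 40 lower (48.1%, against 38.2%), and without its replicate 3 the counts were 24 and 42. Over all genes 17.6% were higher and 20.6% lower, the shares to set beside each list count of the double knockdown. The list of iron export and hepcidin signalling had 3 higher and 10 lower of 19, PRNP (-1.08) and SMAD1 (-0.86) among the latter. The list of iron uptake and reduction had 2 higher and 4 lower of 14. SCARA5 (-2.04), BLVRA (-1.88) and ABCB10 (-1.05) fell here as with siZFX, and CPOX, of heme synthesis, fell from 29.6 ± 2.82 to 8.28 ± 2.61 CPM (-1.84, edgeR adjusted p = 6.08e-09). HMOX1 was at 24.0 ± 4.22 CPM against 21.8 ± 1.21 in siControl_2, and its change differed from that with siZFX by -2.18 (edgeR adjusted p = 2.8e-09). ZC3H12A fell in the double knockdown from 20.3 ± 1.79 to 8.14 ± 1.72 CPM (-1.32, edgeR adjusted p = 2.66e-07), against its rise with siZFX, a difference of -1.92 (edgeR adjusted p = 3.84e-07). AP2M1, a subunit of the adaptor that gathers TFRC into coated pits, fell by 0.49 (edgeR adjusted p = 9.23e-07), and HFE, a partner of TFRC at the surface, by 0.67 (edgeR adjusted p = 5.74e-05).

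Among the zinc importers related to SLC39A14, none of the 10 tested in LN-229 fell with the size of SLC39A14. In the double knockdown 1 was higher, SLC39A9 (0.53), and 4 lower, among them SLC39A4 (-0.73, with overlap of libraries) and SLC39A8 (-0.40), which also carries iron. In the list of zinc exporters and metallothioneins 5 of 12 were higher, among them SLC30A1 (0.50), and 1 was lower. In all, the changes of the double knockdown and siZFX differed for 30 of the 131, 7 higher and 23 lower (22.9%, against 17.7%). These counts were 12 and 25 without double knockdown replicate 3, and 12 and 20 without replicate 1.

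In siZNF593 against siControl 11 of the 131 were higher and 29 lower (30.5%, against 26.8%), and with upper-quartile scaling 18 and 26, again given only as a description. Without siZNF593 replicate 2 they were 7 and 28. Largest among genes at 5 CPM or more were the differences of CPOX from 37.3 ± 1.79 to 9.12 ± 0.561 CPM (-2.03), PRNP from 799 ± 44.2 to 249.7 ± 15.4 CPM (-1.68) and SCARA5 (-1.58). The metallothionein MT2A, which binds zinc, was at 1034 ± 75.8 CPM in siControl and 378 ± 42.8 in siZNF593 (-1.45), and the assembly factors ISCA1 and CIAO2A differed by -1.20 and -1.02. Among the regulators of TFRC 3 of 17 were higher and 7 lower, where 12.2% of all genes were higher and 14.6% lower. The 7 included AP2M1 (-0.98), MYC (-0.72), a transcription factor known to bind the TFRC gene, and HIF1A (-0.57). Their part in the level of TFRC was not tested. Between the control sets 20 of the 131 differed, 13 higher and 7 lower in siControl_2 (15.3%, against 10.3%), and the lower ones were 4 without siControl replicate 3 or siControl_2 replicate 2. Of the 13, 6 were in the list of iron uptake and reduction (none of its 14 was lower, median 0.50), among them SCARA5, at 34.9 ± 4.68 CPM in siControl_2 and 19.3 ± 1.17 in siControl. SCARA5 was at 8.52 ± 1.55 CPM in the double knockdown.

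With wtZFX in DKO cells 36 of the 131 were higher and 18 lower (41.2%, against 42.3%). EPAS1, the hypoxia factor whose mRNA carries an iron-responsive element, rose from 19.4 ± 2.26 to 69.8 ± 5.09 CPM (1.84, edgeR adjusted p = 6.25e-15), and to 41.9 ± 2.91 CPM with ZFX12_13. BMP6, the signal for hepcidin, rose by 1.37, and ABCB10 and BLVRA by 0.74 and 0.70, in the direction opposite to that with siZFX. ZFX12_13 gave 27 higher and 22 lower against pCMV6 (37.4%, against 36.6%), and 8 higher and 26 lower against wtZFX (26%, against 20.4%). Against pCMV6 the counts were 22 and 12 without pCMV6 replicate 1 and 21 and 14 without pCMV6 replicate 3. Against wtZFX they were 4 and 19 without wtZFX replicate 1, 5 and 22 without wtZFX replicate 2, and 13 and 34 without ZFX12_13 replicate 1. Genes lower with ZFX12_13 than with wtZFX included EPAS1 (-0.74), STEAP2 (-0.63), a ferrireductase, ERFE (-0.62), BLVRA (-0.61) and BMP6 (-0.55). ABCB10 was also lower (-0.37).

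**Figure D5:**
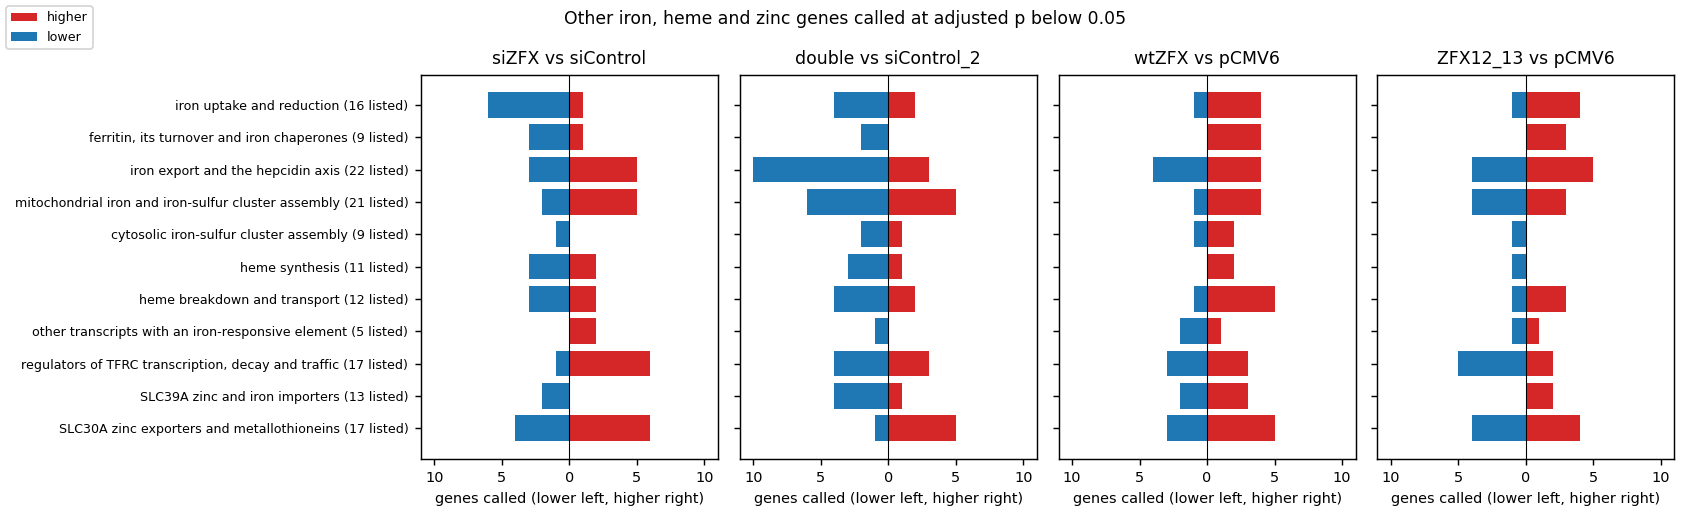
Number of genes of each list called lower (blue, to the left of 0) and higher (red, to the right) at an edgeR adjusted p of 0.05 in 4 comparisons; the number listed is given with each name. The longest bar is of the list of iron export and hepcidin signalling in the double knockdown, with 10 lower.

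By likeness of pattern over the 15 LN-229 libraries, the genes nearest to TFRC among 10620 protein-coding genes ranked were KIF3B, PRNP, LDHA and NT5E (Pearson r of log2 CPM 0.987 each) and TSR1 (0.986). KIF3B was at 121 CPM in siControl, 54.6 in siZNF593, 114 in siControl_2 and 64.7 in the double knockdown, and NT5E at 385, 123, 308 and 165. Among those nearest to SLC39A14 were ARF6 (0.988), PRMT6 (0.988), SSX2IP (0.987) and DESI2 (0.985). All points share the 5 groups, and the siZNF593 libraries that chose TFRC and SLC39A14 are among them, so these values describe the pattern with no test.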

How the data were processed

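Total RNA of 24 libraries was sequenced, and the authors deposited counts per gene as STAR writes them, in 1 unstranded and 2 stranded columns. The submitters' processing notes name STAR, HTSeq, DESeq2 and GRCh38 (hg38) without versions. All 58721 gene IDs matched GENCODE 29. The 10 genes and the 11 lists were chosen with earlier results of these data known. The unstranded column was used because reads fell on both strands alike. It leaves out reads that meet 2 genes (9.49 to 11.1% of reads), so both stranded columns were also summed. Values of that sum are given mainly for FTH1 and ZNF593, and for other genes where named. The LN-229 and DKO libraries went into separate fits, by the robust quasi-likelihood test of edgeR 4.0.16 in R 4.3.3 (TMM scaling, filterByExpr, 1 coefficient per group), with Benjamini-Hochberg adjustment over all genes tested at 0.05. All groups of a line shared the estimate of the spread. Each SE was taken from the size of the log2 change and its F value, and 95% intervals are 1.96 SE on each side. CPM use TMM-scaled totals within a line, and FPKM divide CPM by the union of exons. Adjusted p-values from fits that leave out a library or change a setting are edgeR's too, unless DESeq2 is named. From each list and comparison up to 3 called genes of largest change with a mean of at least 5 CPM may be named, and for TFRC and SLC39A14 the 5 genes of highest correlation, of which 1 is not reported here. Scripts were tested on simulated data. Alternatives were other scaling, filters, DESeq2 1.42.0, fits of the compared groups alone, a replicate block, summed strands, the other control set and leaving out each library.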

Additional observations from a re-analysis of the deposited data

How the results depend on the processing

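Over the 10 genes, 8 comparisons and all alternatives, 1189 of 1220 values kept their sign, and 1100 also kept their side of the threshold or, where no test was made, moved by less than the spread. Fits of the compared groups alone called 7 of the 10 genes with siZFX in place of 4, and between the control sets 6 genes in place of 3 and 3700 of all genes in place of 1824. With no filter ZFX12_13 against pCMV6 called 3 in place of 5. Over the alternative settings, fits leaving out a library aside, 5325 to 7999 of all genes were called with siZFX, in place of 5464. For ZFX12_13 against pCMV6 they were 6001 to 7845, in place of 7086. The double knockdown set directly against siZFX, with no controls, called 9 of the 10 and 6109 of all genes, in place of 5 and 3137.

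Leaving out 1 library at a time gave 2 to 4 of the 10 genes with siZFX (4377 to 4489 of all genes) and 6 to 8 in the double knockdown (5659 to 6987). It gave 5 in every fit of the difference between them (2443 to 3905) and 1 to 2 between the control sets (1204 to 1367). In DKO cells it gave 4 to 6 with wtZFX (6870 to 7292 of all genes), 1 to 6 with ZFX12_13 (5816 to 7433) and 2 to 4 between the constructs (3015 to 4540).

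Of the 31 values that changed sign, 10 were in siZNF593 against siControl, which has no test: FTH1 (-0.02) reached 0.38 against siControl_2, STEAP3 (0.02) reached -0.098 on summed strands, and ACO1 (0.09) was -0.10 against siControl_2. The other 21 were of genes that had not passed. Between the control sets these were IREB2 with no filter (-0.0026) and, leaving out a library, IREB2 (-0.0064 to 0.048) and FTL (-0.14 to 0.0099). SLC11A2 with ZFX12_13 against pCMV6 was -0.017 with upper-quartile factors, -0.014 with no filter and -0.018 to 0.033 leaving out a library. With siControl_2 in place of siControl, siZFX gave 0.0058 for SLC39A14, -0.99 for SLC40A1 and 0.14 for FBXL5. FTH1 in the double knockdown was -0.19 against siControl, and ACO1 was 0.15 in the double knockdown set directly against siZFX. Leaving out a library also gave -0.056 to 0.00051 for FBXL5 with siZFX, -0.00023 to 0.57 for FTH1 and -0.016 to 0.21 for IREB2 in the double knockdown, and -0.13 to 0.067 for SLC40A1 with wtZFX. For the change in the double knockdown less that in siZFX it gave -0.53 to 0.53 for SLC40A1, -0.025 to 0.14 for SLC11A2 and -0.084 to 0.012 for ACO1. The cause of these shifts was not tested.

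Libraries with the same replicate number did not deviate together (r -0.0896 to 0.0969 over 30 pairs in LN-229 and -0.0465 to 0.043 over 9 pairs in DKO cells), so the numbers were not taken to pair the libraries. With a replicate block 5483 genes in place of 5464 were called with siZFX and 6788 in place of 6753 in the double knockdown, with 4 and 7 of the 10 genes as before. For the 10 genes the block changed 1 call, of SLC40A1 in ZFX12_13 against wtZFX (0.40, adjusted p = 0.0484). Depth limits SLC40A1 in LN-229 most, at 6 to 100 counts per library.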
